A study of Mus musculus with 22 samples.

Results

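Skeletal muscle messenger RNA was present at very unequal levels in 8 tumours grown in mice from Panc02, a mouse pancreatic cancer cell line. The tumours were split by the summed level of 5 skeletal muscle genes, Acta1, Ckm, Myh4, Mylpf and Tnnt3, in counts per 1000000 counts of the library (CPM). The 3 tumours above 5000 CPM are called muscle-rich and the 5 below it muscle-poor, out of 8 allografts and 22 libraries in the series. Muscle-rich were tumours 2 and 4, from female hosts, and tumour 7, from a male host; muscle-poor were tumours 1 and 3, from female hosts, and tumours 5, 6 and 8, from male hosts. The series asks how sex bears on natural killer cell immunity against pancreatic cancer, and muscle content is no group of the study. The allografts carry the labels Panc02 and host sex only; genotype, strain, age and site of the graft are not given in the sources used here. The design text calls the model syngeneic. All 8 tumours were dispersed with a rotor homogeniser and their RNA was extracted with TRIzol, so every value is an average over all cells of a piece of tissue. Libraries of Panc02 cells in culture (n = 2) served to show which genes the tumour line itself transcribes.

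A skeletal muscle fibre is a multinucleated cell packed with sarcomeres, in which myosin motors of the thick filament pull on actin of the thin filament when calcium leaves the sarcoplasmic reticulum. Fast fibres and slow fibres carry different isoforms of myosin, troponin and calcium pump, encoded by separate genes. Regenerating fibres, formed when satellite cells divide and fuse, use embryonic and perinatal isoforms for a time. Muscle transcripts in a tumour library thus have 3 readable features: how much there is, of which fibre type, and at which stage.

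Total counts were 39580169 to 41609110 in muscle-rich, 26140269 to 42078638 in muscle-poor and 42123781 to 46842646 in cultured Panc02 libraries. At least 10 counts were held by 20914 to 21333 genes in muscle-rich and 19983 to 20622 genes in muscle-poor tumours. 3 libraries stand apart. Tumour 7, labelled male host, had Xist, the RNA that silences an X chromosome in females, at 8.94 CPM, against 0.523 to 1.1 CPM in male-host tumours 5, 6 and 8 and 41.5 to 162 CPM in female-host tumours. The Y-linked helicase gene Ddx3y was at 9.81 CPM in tumour 7, just below the other male-host tumours (10.4 to 14.7 CPM). Tumour 1, labelled female host, had 0.55 CPM of Ddx3y, where tumours 2, 3 and 4 had 0. Tumour 3 held far more B cell transcripts than the others, as given below with the B cell genes.

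The promoters of 4 of the 5 defining genes are shown because these genes moved together across all 8 tumours, and that of Tnni1, slow troponin I, because it did not follow them. Each is the RefSeq sequence from 250 bases before to 50 after an annotated gene start, 5′ to 3′, with motif matches in capitals. The motifs searched on both strands were CAGCTG, an E-box of the kind that MyoD and myogenin bind, the CArG box of serum response factor and the site of MEF2 factors. The core promoter word TATAAA was searched too, and it can overlap the MEF2 site, as it does in the Myh4 window.
Acta1 (GRCm38.p6, chr8:123894726-123895025, minus strand): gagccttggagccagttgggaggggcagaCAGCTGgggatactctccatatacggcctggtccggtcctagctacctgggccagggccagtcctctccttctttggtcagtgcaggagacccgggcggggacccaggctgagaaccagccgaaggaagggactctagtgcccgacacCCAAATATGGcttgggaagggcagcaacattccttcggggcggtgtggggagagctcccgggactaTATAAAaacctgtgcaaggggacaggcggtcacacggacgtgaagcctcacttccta
Ckm (GRCm38.p6, chr7:19410844-19411143, plus strand): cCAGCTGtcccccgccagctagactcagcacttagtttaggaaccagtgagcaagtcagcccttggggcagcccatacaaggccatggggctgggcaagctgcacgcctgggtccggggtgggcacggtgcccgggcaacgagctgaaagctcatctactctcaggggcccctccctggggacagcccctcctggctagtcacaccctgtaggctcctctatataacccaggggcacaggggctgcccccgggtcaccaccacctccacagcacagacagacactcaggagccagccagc
Myh4 (GRCm38.p6, chr11:67237562-67237861, plus strand): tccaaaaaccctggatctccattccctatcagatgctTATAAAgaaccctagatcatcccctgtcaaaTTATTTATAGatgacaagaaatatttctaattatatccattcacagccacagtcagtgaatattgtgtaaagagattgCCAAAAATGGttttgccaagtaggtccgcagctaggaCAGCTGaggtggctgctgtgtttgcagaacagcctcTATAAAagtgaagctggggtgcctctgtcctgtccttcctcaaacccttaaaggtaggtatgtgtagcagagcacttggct
Mylpf (GRCm38.p6, chr7:127211358-127211657, plus strand): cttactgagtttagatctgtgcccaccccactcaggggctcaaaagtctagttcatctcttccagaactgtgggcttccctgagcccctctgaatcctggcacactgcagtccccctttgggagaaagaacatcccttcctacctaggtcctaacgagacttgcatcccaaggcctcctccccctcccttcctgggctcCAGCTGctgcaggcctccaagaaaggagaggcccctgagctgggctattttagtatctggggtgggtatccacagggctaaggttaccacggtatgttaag
Tnni1 (GRCm38.p6, chr1:135799171-135799470, plus strand): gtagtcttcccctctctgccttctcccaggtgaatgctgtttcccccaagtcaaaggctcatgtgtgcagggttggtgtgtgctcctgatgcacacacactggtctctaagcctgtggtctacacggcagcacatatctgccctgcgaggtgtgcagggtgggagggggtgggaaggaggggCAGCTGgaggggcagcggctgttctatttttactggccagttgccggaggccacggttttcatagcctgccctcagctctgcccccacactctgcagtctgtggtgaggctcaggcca
CAGCTG stood once in each of the 5 windows, and in 16.4% of 32544 promoter windows of the same length. TATAAA was found in the Acta1 and Myh4 windows and in 13.6% of all, the CArG box in the same pair and in 1.64% of all, and the MEF2 site in the Myh4 window and in 3.16% of all. Windows of Myh7, the slow myosin heavy chain, and Myog, myogenin, were searched too, are not shown, and held 0 matches to any of these motifs. A match is a stretch of letters and not evidence of binding. Any link between these motifs and the levels across tumours was not tested.

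The 5 defining genes summed to 16901, 27209 and 7913 CPM in tumours 2, 4 and 7, against 1234, 2231, 3475, 598 and 2262 CPM in tumours 1, 3, 5, 6 and 8. The groups were chosen by these measured sums, which are therefore given without a test. The tumours nearest to the boundary were tumour 7 just above it, with 7913 CPM, and tumour 5 just below it, with 3475 CPM. The sum spanned 45.5-fold over the 8 tumours, and the boundary cuts a graded series: tumour 7 was 2.28-fold above tumour 5, while tumour 5 was itself above tumour 6 by a wider ratio. No muscle-poor tumour was free of muscle RNA, since cultured Panc02 cells summed to 0.811 and 0.902 CPM, so that the lowest tumour lay 663-fold above the line in culture.

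Acta1 (chromosome 8, 124618508 to 124621490, GRCm39), the actin of skeletal muscle thin filaments, was at 7390.4, 8384 and 2957 CPM in muscle-rich tumours 2, 4 and 7, against 395, 1086, 1235, 236 and 851 CPM in muscle-poor tumours 1, 3, 5, 6 and 8. Ckm (chromosome 7, 19138701 to 19156766), the creatine kinase that buffers ATP in muscle, was at 2845, 5802 and 1549 CPM in the muscle-rich tumours, against 251.4, 342, 691, 112.8 and 446 CPM in the muscle-poor ones. Myh4 (chromosome 11, 67128855 to 67151272), the myosin heavy chain of the fastest fibres, type IIB, was at 3239, 5330.0 and 1918 CPM in the muscle-rich tumours, against 200.3, 304, 773, 137 and 384 CPM in the muscle-poor ones. For each of these genes tumour 4 was the highest and tumour 6 the lowest, and the groups did not overlap. Mylpf (chromosome 7, 126808062 to 126813470), the fast regulatory light chain, averaged 1922 ± 1492 CPM in muscle-rich and 236 ± 118 CPM in muscle-poor tumours (SD, n = 3 and 5). Tnnt3 (chromosome 7, 142052573 to 142069746), fast troponin T, averaged 2281 ± 1691 CPM in muscle-rich and 235 ± 129.76 CPM in muscle-poor tumours (SD, n = 3 and 5). The mixture of the 5 varied between tumours, with overlapping groups: Acta1 made up 30.8% to 43.7% of the sum in muscle-rich and 32.0% to 48.7% in muscle-poor tumours, and Mylpf, the most uneven, 7.08% to 12.9% of the sum in muscle-rich and 9.58% to 16.0% in muscle-poor tumours. In bulk tissue, fewer muscle fibres and less RNA per fibre cannot be told apart.

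**Figure D1:**
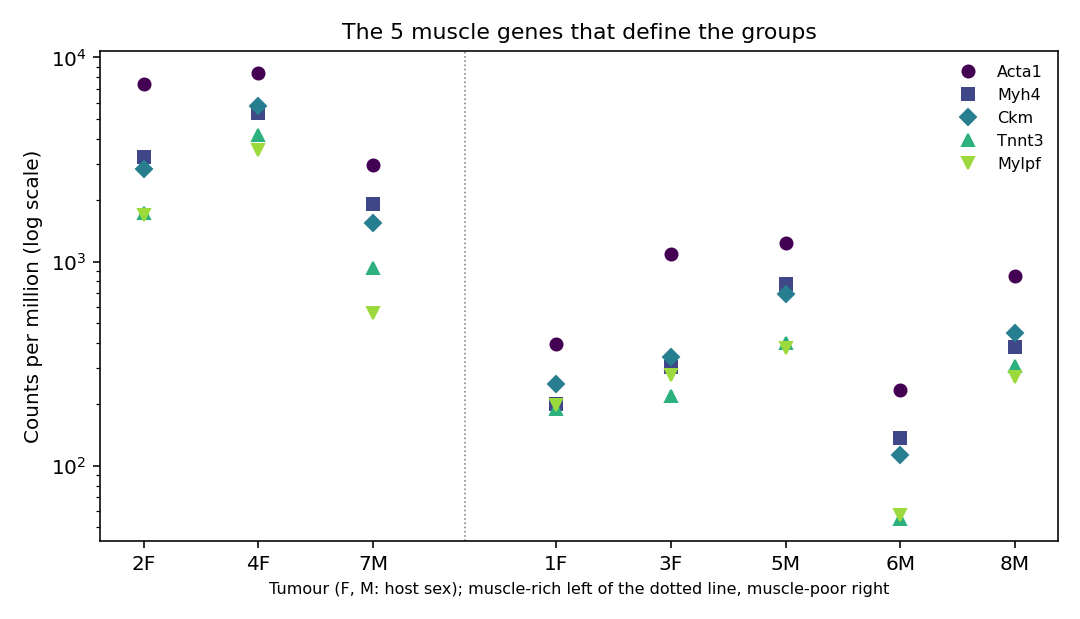
Level of the 5 defining genes in each tumour, in CPM on a log axis, with muscle-rich tumours left of the dotted line; 1 symbol is 1 gene in 1 library. The 5 symbols keep together from tumour to tumour, from tumour 4 with the highest sum (27209 CPM) to tumour 6 with the lowest (598 CPM).

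Beyond the defining genes, 130 further muscle genes were followed in 9 lists by role; 127 passed the filter on low counts. Of these, 76 were higher in every muscle-rich tumour than in any muscle-poor one and 0 were lower in all, where 4.34% of all 22621 genes tested were higher without overlap. Muscle genes share the fibres that set the groups, so these counts follow from the choice and are a description. All muscle lists together took 2.15% to 6.67% of the counts of muscle-rich and 0.407% to 1.02% of those of muscle-poor tumours. Cultured Panc02 had 0.349% and 0.355%, most of it from genes that many cells transcribe, such as Tpm1 at 849 and 837 CPM.

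The contractile apparatus of fast fibres followed the defining genes closely. The 8 further fast fibre genes had a median ratio of group means of 8.33, and 7 of them did not overlap. Of all genes tested, 4.34% were higher without overlap. Actn3, the alpha-actinin of fast Z-discs, was at 1377, 2116 and 596 CPM in the muscle-rich tumours, against 75.4, 188, 238, 43.6 and 134 CPM in the muscle-poor ones. Tnni2, fast troponin I, averaged 1012 ± 675 CPM in muscle-rich and 107 ± 55.1 CPM in muscle-poor tumours, and Tnnc2, fast troponin C, 1256 ± 911 CPM in muscle-rich and 131 ± 73.8 CPM in muscle-poor tumours. Myl1, the fast essential light chain, differed by a ratio of means of 8.72. The smallest ratio was that of Tpm1, a tropomyosin also used outside muscle (3.08; 2752 ± 1838 CPM in muscle-rich and 892 ± 191 CPM in muscle-poor tumours). The 23 sarcomere scaffold genes had a median ratio of 7.24. Ttn, the titin spring that spans the sarcomere, was at 704, 683 and 409 CPM in the muscle-rich tumours, against 24.4, 87.4, 151, 32.5 and 71.5 CPM in the muscle-poor ones, and its partner on the thin filament, Neb (nebulin), at 501, 421 and 257 CPM in the muscle-rich tumours, against 13.9, 64.5, 106, 23.6 and 38.3 CPM in the muscle-poor ones. Myoz1, a Z-disc protein of fast fibres, reached 572 CPM in tumour 4, with a ratio of means of 13.6. Tpm2 differed by a ratio of means of 4.11. Myom3, an M-band protein, had the smallest ratio of the scaffold list (3.1), and it did overlap: tumour 4 had 1.39 CPM, against 7.12 CPM in tumour 3.

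Genes that start and end a contraction, and those that fuel it, were also set apart. Atp2a1, the calcium pump of fast fibres (SERCA1), was at 3199, 5322 and 1799 CPM in the muscle-rich tumours, against 162, 311, 532, 91.5 and 314 CPM in the muscle-poor ones. Pvalb, the parvalbumin that soaks up calcium in the fastest fibres, was at 742, 3216 and 321 CPM in the muscle-rich tumours, against 132, 39.5, 142, 11.3 and 157 CPM in the muscle-poor ones, and tumour 4 stands well above the rest. Ryr1, the calcium release channel, averaged 476 ± 179.8 CPM in muscle-rich and 53.0 ± 38.5 CPM in muscle-poor tumours, and Casq1, the calcium store protein calsequestrin, 319 ± 266 CPM in muscle-rich and 29.4 ± 16.3 CPM in muscle-poor tumours. Sln, sarcolipin, which holds back the calcium pump, was the 1 gene of this list of 20 with a ratio of means below 1 (0.883): it was at 29.0, 3.49 and 22.9 CPM in the muscle-rich tumours, against 1.33, 67.4, 11.2, 6.68 and 18.028 CPM in the muscle-poor ones. That direction rested on muscle-poor tumour 3, without which the ratio was 1.99. Among 20 energy genes the median ratio was 6.32. Pygm, the glycogen phosphorylase of muscle, averaged 731 ± 455 CPM in muscle-rich and 57.5 ± 32.1 CPM in muscle-poor tumours, and Eno3, muscle enolase, 734 ± 404 CPM in muscle-rich and 163 ± 51.4 CPM in muscle-poor tumours. Pfkm, the muscle phosphofructokinase, had a ratio of 4.31. Slc25a4, a mitochondrial ADP/ATP carrier that Panc02 itself transcribes, ranged over 324 to 663 CPM in muscle-rich and 249 to 333 CPM in muscle-poor tumours, and the groups overlapped. Gys1, glycogen synthase, had the smallest ratio (1.29). Mb, myoglobin, the oxygen store of oxidative fibres, was at 113.3, 90.9 and 40.9 CPM in the muscle-rich tumours, against 3.94, 39.8, 10.507, 3.07 and 25.9 CPM in the muscle-poor ones, with tumour 3 just under tumour 7. In the list of 16 membrane and junction genes the median ratio was 1.62. Sgca, a sarcoglycan of the dystrophin complex, had a ratio of 5.39, whereas Sgcb, Dysf (dysferlin) and Chrna1, an acetylcholine receptor subunit, had 1.38, 1.6 and 1.72 and overlapped.

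**Figure D2:**
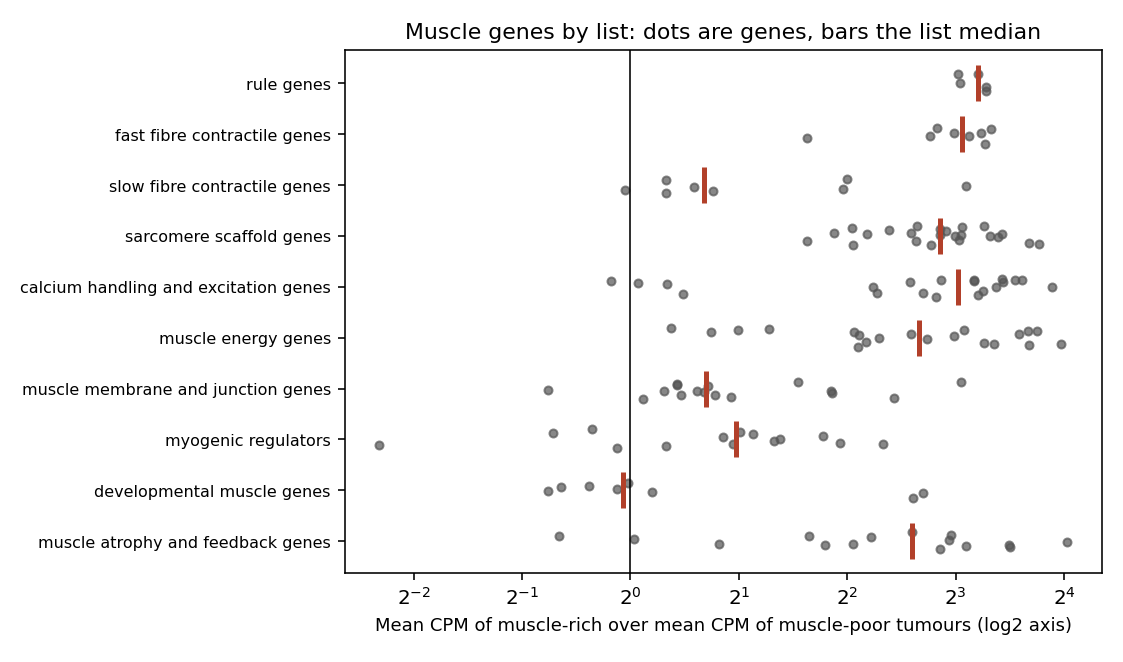
Ratio of mean CPM in muscle-rich over muscle-poor tumours for each muscle gene (dots, jittered vertically), by list, on a log2 axis, with list medians as red bars. The medians are 8.33 for fast fibre and 7.24 for sarcomere scaffold genes, against 1.6 for slow fibre and 0.95 for developmental genes.

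Slow fibre genes did not follow the fast ones. Of 8 slow fibre genes, 1 was higher without overlap, Myl3, the slow essential light chain, where 4.34% of all genes were. Tnni1, slow troponin I, was at 28.2, 3.13 and 11.3 CPM in the muscle-rich tumours, against 2.66, 34.7, 7.02, 2.83 and 9.44 CPM in the muscle-poor ones; the highest tumour was muscle-poor tumour 3, and muscle-rich tumour 4 was near the bottom. Tnnt1, slow troponin T, was at 34.2, 3.56 and 18.6 CPM in the muscle-rich tumours, against 1.39, 33.5, 4.66, 1.85 and 14.0 CPM in the muscle-poor ones, and Tnnc1, slow troponin C, at 35.0, 4.07 and 16.6 CPM in the muscle-rich tumours, against 4.69, 33.5, 7.5, 2.52 and 13.6 CPM in the muscle-poor ones. Cultured Panc02 had 2.41 and 2.83 CPM of Tnnc1, so its lowest tumour values stand no higher than the line itself. Myh7, the slow myosin heavy chain, was at 71.2, 1.77 and 41.0 CPM in the muscle-rich tumours, against 0.0869, 36.1, 0.856, 0.0238 and 10.459 CPM in the muscle-poor ones. Tumours 2, 3 and 7 held the most Myh7, and tumour 4, with the most muscle RNA of all, held little. Tpm3, a tropomyosin of slow fibres and of many other cells, ranged over 358 to 459 CPM in muscle-rich and 406 to 508 CPM in muscle-poor tumours.

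Set against its fast counterpart, and scaled by the annotated exon length of each gene, the slow share was unlike in tumours of 1 group. The size of a share depends on that scaling: for troponin I in tumour 3 it was 11.3%, and 23.5% by raw counts. The slow share of troponin I was 1.34, 0.0744 and 1.1% in the muscle-rich tumours, against 1.25, 11.3, 1.73, 4.54 and 2.61% in the muscle-poor ones. The slow share of troponin C was 2.53, 0.138 and 2.61% in the muscle-rich tumours, against 3.2, 17.3, 2.51, 6.92 and 5.75% in the muscle-poor ones. Tnnc1 is also transcribed by cultured Panc02, at about the level found in tumour 6. The part of the tumour line in this share was not tested. The slow share of troponin T was 1.39, 0.061 and 1.41% in the muscle-rich tumours, against 0.523, 9.78, 0.827, 2.35 and 3.14% in the muscle-poor ones. All 3 shares were highest in tumour 3 and lowest in tumour 4. They averaged 0.838 ± 0.672%, 1.76 ± 1.4% and 0.954 ± 0.773% in muscle-rich tumours and 4.29 ± 4.13%, 7.14 ± 5.97% and 3.32 ± 3.77% in muscle-poor ones (SD, n = 3 and 5), with groups that overlap, and the fast gene in each denominator was a defining gene or followed them.

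Tumour 3 also stood apart in the make-up of 6 sarcomeric myosin heavy chains. Myh4, type IIB, made up 76.9, 94.3 and 86.2% in the muscle-rich tumours, against 96.6, 51.6, 95.1, 86.6 and 82.9% in the muscle-poor ones by length-scaled level. Myh1, the type IIX chain, made up 17.1, 4.02 and 10.3% in the muscle-rich tumours, against 2.04, 33.0, 2.95, 10.6 and 10.7% in the muscle-poor ones. In tumour 3, Myh2, of type IIA fibres, held 7.32% and Myh7 4.28%. In CPM, Myh1 was at 759, 240.1 and 241 CPM in the muscle-rich tumours, against 4.46, 205, 25.3, 17.7 and 52.5 CPM in the muscle-poor ones, and Myh2 at 206, 81.8 and 40.6 CPM in the muscle-rich tumours, against 1.07, 51.2, 5.49, 2.14 and 17.2 CPM in the muscle-poor ones, so that tumour 3 overlaps muscle-rich tumour 7 for Myh2. Reads that map to several of these paralogs were counted for each, so the shares are uncertain where the genes are alike in sequence.

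**Figure D3:**
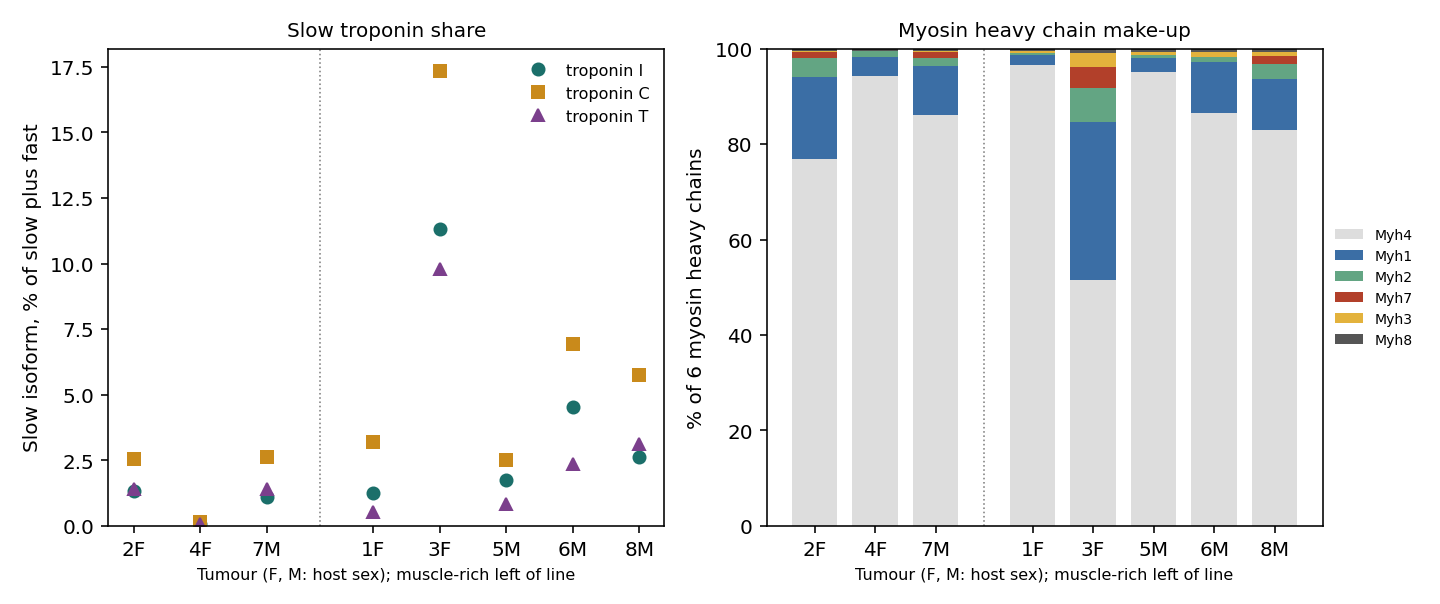
Left, percentage of the slow isoform in slow plus fast troponin I, C and T in each tumour; right, make-up of 6 myosin heavy chains, both by length-scaled level, with muscle-rich tumours left of the dotted line. Tumour 3 has the highest slow shares (11.3% for troponin I) and tumour 4 the lowest (0.0744%).

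The 14 myogenic regulators, genes of muscle formation, had a median ratio of 1.97. Of 12 tested, 3 were higher without overlap, where 4.34% of all genes were. They summed to 268 to 277 CPM in muscle-rich and 167 to 251.4 CPM in muscle-poor tumours, without overlap. Cultured Panc02 summed to 166 and 149 CPM, near the lowest tumour, so the sum is not a measure of muscle alone. Single members were ordered otherwise. Pax7, the mark of satellite cells, stayed at or below 0.783 CPM in all tumours and was at 0.779, 0.783 and 0.216 CPM in the muscle-rich tumours, against 0, 0.23, 0.177, 0.0475 and 0.409 CPM in the muscle-poor ones. Myod1, the factor that commits cells to muscle, ranged over 3.08 to 6.39 CPM in muscle-rich and 0.521 to 5.19 CPM in muscle-poor tumours. Myog, myogenin, which drives fusion and differentiation, was at 5.58, 2.43 and 2.24 CPM in the muscle-rich tumours, against 0.55, 15.3, 6.11, 1.28 and 4.73 CPM in the muscle-poor ones, and tumour 3 had the most. Mymx, a peptide needed for myoblast fusion, had a ratio of means of 0.201, with 2.33 CPM in tumour 3 and at most 0.292 CPM in muscle-rich tumours. Myf6, the myogenic factor of mature fibres, was different: it was at 11.4, 16.7 and 8.99 CPM in the muscle-rich tumours, against 1.27, 4.71, 4.72, 0.998 and 4.48 CPM in the muscle-poor ones, with no overlap. Mef2c, a MEF2 factor, averaged 57.7 ± 12.6 CPM in muscle-rich and 22.1 ± 7.02 CPM in muscle-poor tumours, while Mef2d and Six4, used in many tissues, had ratios of 1.25 and 0.919. Of 8 developmental genes, 5 were highest in tumour 3 and 2 in tumour 4. Myh3, the embryonic myosin heavy chain, was at 7.06, 2.91 and 3.36 CPM in the muscle-rich tumours, against 0.84, 17.5, 4.96, 1.4 and 4.3 CPM in the muscle-poor ones, and Chrng, the fetal acetylcholine receptor subunit, at 0.877, 0.758 and 0.36 CPM in the muscle-rich tumours, against 0, 3.37, 1.42, 0.38 and 0.46 CPM in the muscle-poor ones. Myh8, the perinatal chain, behaved like the fast genes, with 39.8 ± 13.3 CPM in muscle-rich and 6.54 ± 4.39 CPM in muscle-poor tumours. Actc1, the fetal and cardiac actin, was high in tumour 4 only (109 CPM, against at most 12.6 CPM in the other 7). Tnnt2, cardiac and fetal troponin T, was at 56.4 CPM in tumour 3 and 50.6 CPM in tumour 2, against at most 14.0 CPM in the others. Ncam1 ranged over 30.0 to 38.5 CPM in muscle-rich and 21.8 to 51.1 CPM in muscle-poor tumours.

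Of 15 genes of fibre wasting and feedback, 10 were higher without overlap and 0 lower, where 4.34% and 2.39% of all genes were. Their median ratio was 6.03, and they summed to 452 to 703 CPM in muscle-rich and 197 to 305 CPM in muscle-poor tumours. Cultured Panc02 summed to 246 and 242 CPM, nearly all of it Ankrd1. Trim63 (MuRF1), a ubiquitin ligase of atrophy, was at 45.6, 49.2 and 31.2 CPM in the muscle-rich tumours, against 2.03, 11.1, 18.6, 2.59 and 10.7 CPM in the muscle-poor ones, with no overlap. Fbxo32 (atrogin-1), the other classic atrophy ligase, was at 59.3, 82.6 and 79.7 CPM in the muscle-rich tumours, against 29.5, 32.4, 48.2, 62.1 and 37.3 CPM in the muscle-poor ones; tumour 6, the poorest in muscle, was above muscle-rich tumour 2. Klhl41 and Asb2, which act in sarcomere upkeep and protein turnover of muscle, had ratios of 7.23 and 7.64. Ankrd1, a stretch-responsive gene that Panc02 itself transcribes (236 and 240.3 CPM in culture), had 75.6, 64.5 and 139.7 CPM in the muscle-rich tumours, against 137, 94.7, 156, 207 and 142 CPM in the muscle-poor ones. Heart muscle genes were low (median log2 fold change 0.32 over 5 tested, and -0.08 without tumour 7): the natriuretic peptide gene Nppa and the atrial light chain Myl7 were at or below 0.256 CPM in every tumour, and Gja5 and Tnni3, a connexin and cardiac troponin I, ranged over 6.01 to 8.72 CPM in muscle-rich and 2.23 to 7.34 CPM in muscle-poor tumours, and 1.35 to 1.72 CPM in muscle-rich and 1.09 to 2.26 CPM in muscle-poor tumours.

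Across the transcriptome, with host sex in the fit and the 5 defining genes left out, no gene passed the test between the groups. Of 22621 genes, 0 (0.0%) were called higher and 0 (0.0%) lower by edgeR's quasi-likelihood test at a Benjamini-Hochberg adjusted p of 0.05, and the smallest adjusted p was 0.127. At an unadjusted p under 0.05, 1208 genes (5.34%) were higher and 773 (3.42%) lower. DESeq2 called 477 higher (2.11%) and 54 lower (0.239%), while limma voom called none in either direction. With no filter on low counts, edgeR called 249 higher (0.612%) and 15 lower (0.0369%), and without host sex in the fit 140 higher (0.654%) and 0 lower (0.0%). Without overlap, 981 genes (4.34%) were higher and 540 (2.39%) lower in muscle-rich tumours. The biological coefficient of variation was 0.352 with 5 residual degrees of freedom, so fold changes of the size given below have wide errors. The labels do not say that each tumour came from its own animal, so a p-value here speaks of the variation among libraries, part of which may be technical.

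Among the 100 genes with the smallest p, 99 were higher in muscle-rich tumours and 9 were in a muscle list, beside 127 of all 22621 tested. The following were chosen after their values were seen. Dmpk (chromosome 7, 18817774 to 18827746, GRCm39), the kinase gene of myotonic dystrophy, had the smallest p; it was at 77.5, 94.4 and 47.4 CPM in the muscle-rich tumours, against 33.6, 39.6, 25.6, 23.1 and 25.4 CPM in the muscle-poor ones. Its groups did not overlap (log2 fold change 1.12 ± 0.13 (SE), adjusted p = 0.127 by edgeR), but cultured Panc02 had 74.8 and 79.6 CPM, as much as a muscle-rich tumour. Scn4b, a sodium channel beta subunit, was at 57.7, 67.8 and 33.9 CPM in the muscle-rich tumours, against 2.58, 2.98, 6.35, 1.71 and 4.94 CPM in the muscle-poor ones (log2 fold change 3.89 ± 0.49 (SE), adjusted p = 0.127 by edgeR). Synm, synemin, an intermediate filament protein that links Z-discs, was at 149, 179.8 and 100.03 CPM in the muscle-rich tumours, against 20.3, 15.1, 28.9, 38.7 and 23.6 CPM in the muscle-poor ones (log2 fold change 2.63 ± 0.35 (SE), adjusted p = 0.127 by edgeR). Fyco1, an adaptor that moves autophagic vesicles, was even within groups, at 58.2, 56.0 and 52.3 CPM in the muscle-rich tumours, against 23.6, 27.5, 33.0, 34.5 and 28.5 CPM in the muscle-poor ones (log2 fold change 0.98 ± 0.14 (SE), adjusted p = 0.127 by edgeR). Mfn2, a mitochondrial fusion protein, averaged 125 ± 26.9 CPM in muscle-rich and 63.4 ± 6.22 CPM in muscle-poor tumours, and Lpin1, a phosphatidate phosphatase of fat synthesis, 60.1 ± 5.66 CPM in muscle-rich and 28.0 ± 4.93 CPM in muscle-poor tumours. Me3, a mitochondrial malic enzyme, averaged 14.4 ± 4.18 CPM in muscle-rich and 3.94 ± 0.344 CPM in muscle-poor tumours, and Ucp3, the uncoupling protein of muscle mitochondria, 7.29 ± 3.22 CPM in muscle-rich and 0.848 ± 0.329 CPM in muscle-poor tumours. Ndrg2, a stress-responsive gene high in muscle, was at 322, 386 and 188 CPM in the muscle-rich tumours, against 25.1, 58.7, 63.2, 32.2 and 59.3 CPM in the muscle-poor ones (log2 fold change 2.60 ± 0.41 (SE), adjusted p = 0.144 by edgeR). Each of these genes was higher in 3 of 3 muscle-rich tumours than in any muscle-poor tumour, and none passed the adjusted threshold.

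**Figure D4:**
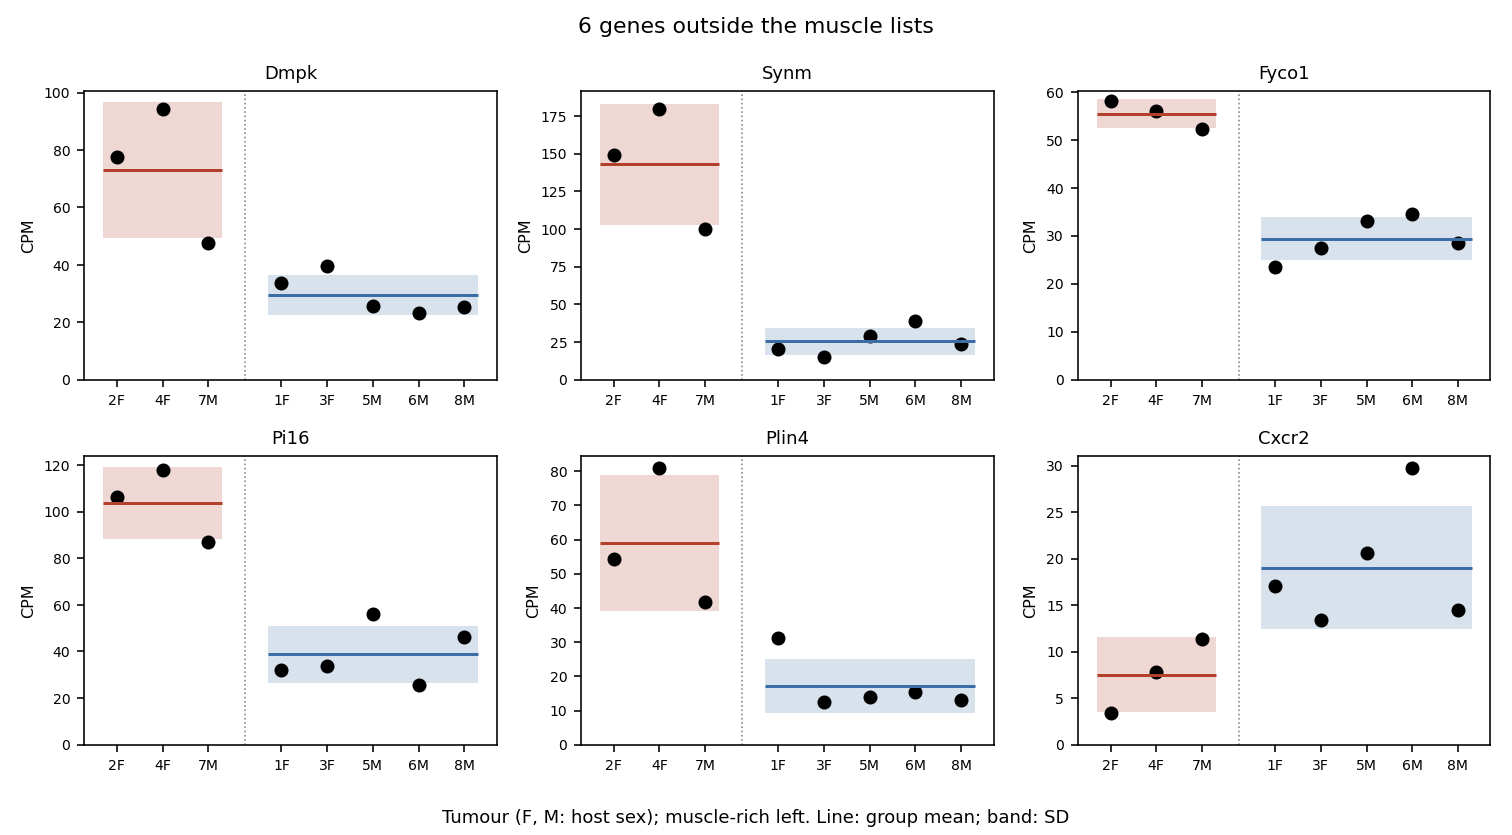
CPM of 6 genes outside the muscle lists in each tumour (points), with the group mean (line) and SD (band), muscle-rich left of the dotted line. In all 6 panels the 3 muscle-rich points lie apart from the 5 muscle-poor ones, above them for 5 genes and below them for Cxcr2 (3.41 to 11.4 CPM, against 13.4 to 29.7 CPM).

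Other cell types were read through 22 lists with 311 tested genes, of which 24 were higher and 1 lower without overlap, where 4.34% and 2.39% of all genes were; none was called. At an unadjusted p under 0.05, 37 were higher and 8 lower, where 5.34% and 3.42% of all genes were. Fat cell genes stood out. Of 15 tested, 8 were higher without overlap, where 4.34% of all genes were, and the median log2 fold change was 2.08, against -0.01 over all genes tested. The median was 0.98 in male hosts alone. Their summed level was 1168, 1114 and 491 CPM in the muscle-rich tumours, against 255, 341, 284, 233 and 366 CPM in the muscle-poor ones. Cultured Panc02 summed to 278 and 270 CPM, within the muscle-poor range, so the sum is not a measure of fat alone. Car3, a carbonic anhydrase abundant in fat and in slow muscle, was at 405, 441 and 109.8 CPM in the muscle-rich tumours, against 18.9, 74.3, 59.5, 10.0 and 55.1 CPM in the muscle-poor ones (log2 fold change 2.51 ± 0.78 (SE), adjusted p = 0.398 by edgeR). Scd1, the desaturase that makes oleate, averaged 222 ± 39.9 CPM in muscle-rich and 139.7 ± 33.4 CPM in muscle-poor tumours and was as high in cultured Panc02. Adipoq, adiponectin, a hormone of fat cells, was at 27.4, 20.3 and 4.71 CPM in the muscle-rich tumours, against 1.62, 4.28, 5.25, 0.0713 and 3.63 CPM in the muscle-poor ones, so muscle-poor tumour 5 overlaps tumour 7. The next members were picked after their values were seen. Plin4, a coat protein of lipid droplets, was at 54.4, 80.9 and 41.9 CPM in the muscle-rich tumours, against 31.2, 12.4, 14.0, 15.4 and 13.0 CPM in the muscle-poor ones (log2 fold change 1.61 ± 0.29 (SE), adjusted p = 0.144 by edgeR). Plin1, the droplet coat of mature fat cells, was at 16.8, 8.74 and 2.24 CPM in the muscle-rich tumours, against 0.579, 0.842, 1.21, 0.0475 and 2.07 CPM in the muscle-poor ones. Lep, leptin, averaged 3.05 ± 2.42 CPM in muscle-rich and 0.248 ± 0.24 CPM in muscle-poor tumours; Cfd, the fat cell protease adipsin, averaged 107 ± 68.2 CPM in muscle-rich and 17.7 ± 10.957 CPM in muscle-poor tumours; and Fabp4, a fatty acid carrier, 95.4 ± 45.1 CPM in muscle-rich and 31.3 ± 19.8 CPM in muscle-poor tumours. Without tumour 7, 13 of 15 did not overlap, beside 7.9% of all genes. The part of fat tissue in the differences of other genes was not tested.

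The sums of red cell and skin genes peaked in tumour 7. Red cell genes summed to 250, 99.3 and 892 CPM in the muscle-rich tumours, against 81.1, 79.0, 59.6, 57.2 and 56.6 CPM in the muscle-poor ones, without overlap. Of the 6 tested, 5 had a positive log2 fold change and 1 a negative one, at -1.62 with an unadjusted p under 0.05 by edgeR. The 4 adult globin genes on the red cell list, whose median was 2.54 over 6 tested genes and 1.08 without tumour 7, did not overlap between the groups. Of all genes, 4.34% were higher without overlap. Hbb-bs, adult beta globin, was at 82.8, 35.1 and 294 CPM in the muscle-rich tumours, against 27.7, 25.4, 18.6, 19.8 and 18.2 CPM in the muscle-poor ones (log2 fold change 2.53 ± 0.57 (SE), adjusted p = 0.222 by edgeR), and Hba-a1, alpha globin, at 62.8, 25.4 and 238 CPM in the muscle-rich tumours, against 20.014, 21.1, 17.1, 16.2 and 16.5 CPM in the muscle-poor ones. Tumour 7 held most of it: the log2 fold change of Hba-a1 was 2.44 with tumour 7 and 1.09 without it (adjusted p = 0.23 and 0.295 by edgeR). The globin genes are near-identical copies, and their split between paralogs is uncertain. The 11 skin keratinocyte genes summed to 27.9, 44.7 and 327 CPM in the muscle-rich tumours, against 65.1, 16.3, 49.998, 38.5 and 46.1 CPM in the muscle-poor ones, with a median log2 fold change of 3.81 over 10 tested. That median was 0.30 without tumour 7 and -0.13 with the boundary at 10000 CPM, which makes tumour 7 muscle-poor. Krt14, a keratin of the basal layer of skin, was at 0.39, 11.2 and 106 CPM in the muscle-rich tumours, against 0.232, 0.0765, 2.74, 0.713 and 6.34 CPM in the muscle-poor ones (log2 fold change 5.07 ± 1.10 (SE), adjusted p = 0.212 by edgeR), and its partner Krt5, picked after its values were seen, at 0.585, 6.52 and 50.1 CPM in the muscle-rich tumours, against 0, 0.153, 1.77, 0.143 and 2.25 CPM in the muscle-poor ones. Krtdap and Krt1, of the upper layers, reached 35.2 and 25.5 CPM in tumour 7 and stayed at or below 0.944 and 1.83 CPM in the other 7 tumours. Muscle-rich tumour 2 had next to none of these keratins, and the groups overlapped for every skin gene. Krt14 and Krt5 departed from the list there. Without tumour 7 their fitted log2 fold changes were 5.18 and 5.66 (adjusted p = 0.363 and 0.341 by edgeR), from tumour 4 alone on the high side. Trp63, the p63 factor of basal epithelia, ranged over 17.8 to 38.1 CPM in muscle-rich and 9.1 to 58.0 CPM in muscle-poor tumours. Tumour 7 is also the tumour with an intermediate level of Xist, and what part the skin and blood RNA have in its other values was not tested.

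**Figure D5:**
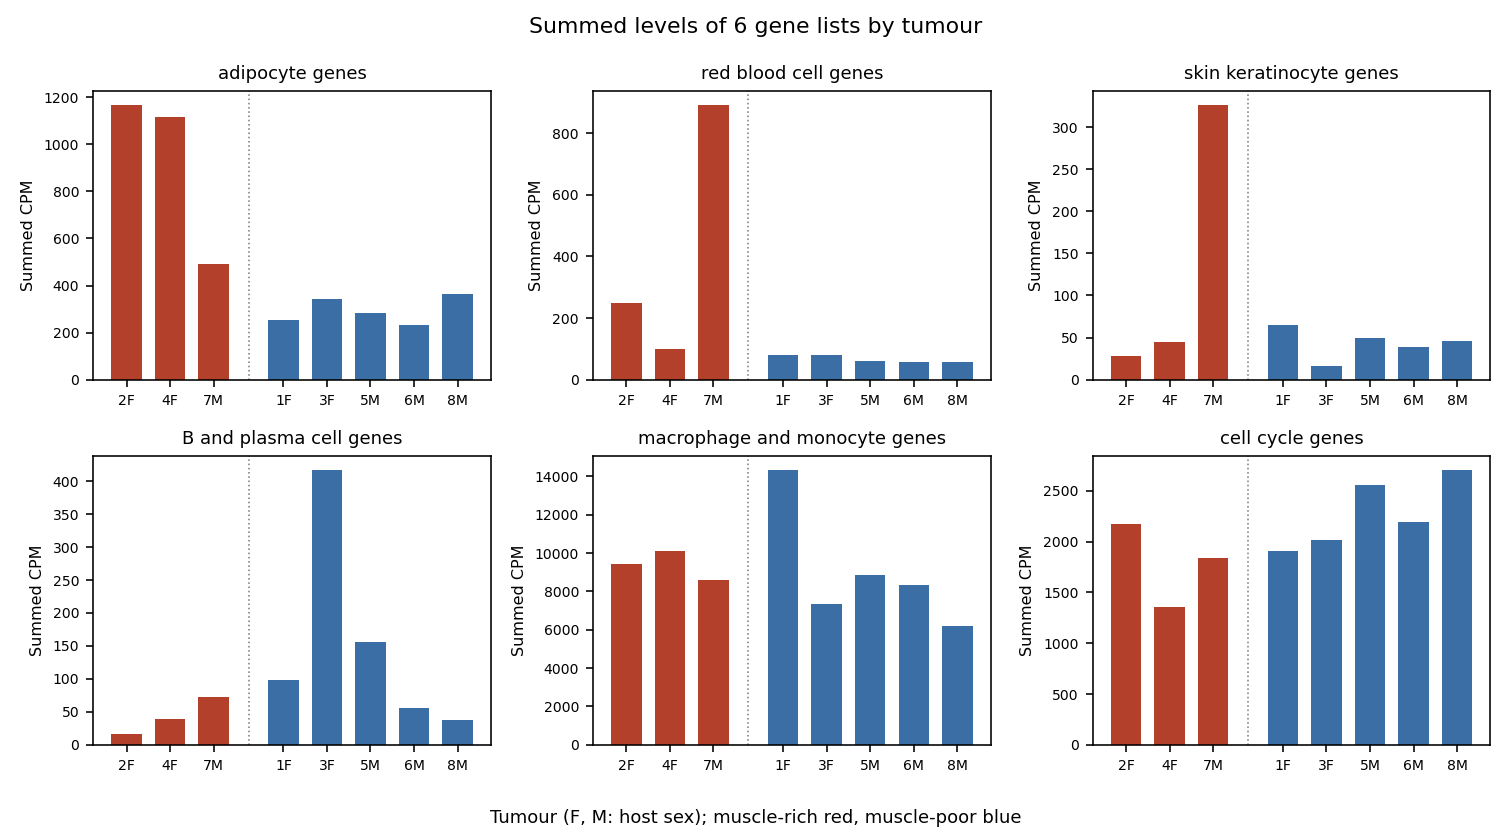
Summed CPM of 6 gene lists in each tumour, muscle-rich in red left of the dotted line and muscle-poor in blue; each bar is 1 library and each panel has its own axis from 0. Fat cell genes are higher in all 3 muscle-rich tumours (491 to 1168 CPM in muscle-rich and 233 to 366 CPM in muscle-poor tumours), red cell and skin genes peak in tumour 7, and B cell genes peak in muscle-poor tumour 3. Cultured Panc02, not drawn, summed to 278 and 270 CPM for the fat cell genes.

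Most stromal and vessel genes overlapped between the groups. Higher without overlap were 2 of 18 fibroblast, 1 of 18 endothelial and 3 of 10 smooth muscle genes. So were 1 of 12 nerve and 0 of 9 tendon genes, where 4.34% of all genes were. The 18 fibroblast and pericyte genes had a median log2 fold change of 0.14 (-0.09 without tumour 4 and 0.49 without tumour 7), and their most abundant members, Col1a1 and Col1a2 of type I collagen, ranged over 6368 to 10292 CPM in muscle-rich and 3949 to 14046 CPM in muscle-poor tumours, and 4198 to 7355 CPM in muscle-rich and 2738 to 9149 CPM in muscle-poor tumours. A pair of them, picked after their values were seen, were higher without overlap, where 4.34% of all genes were. Pi16, a marker of fibroblasts of the vessel surround, was at 106, 118 and 87.0 CPM in the muscle-rich tumours, against 32.0, 33.9, 56.1, 25.7 and 46.3 CPM in the muscle-poor ones (log2 fold change 1.47 ± 0.27 (SE), adjusted p = 0.148 by edgeR). Pdgfra, the PDGF receptor of fibroblasts, averaged 94.9 ± 20.8 CPM in muscle-rich and 50.9 ± 10.6 CPM in muscle-poor tumours (log2 fold change 0.89 ± 0.21 (SE), adjusted p = 0.207 by edgeR). In 18 endothelial genes the median was 0.36 (0.175 without tumour 1 and 0.69 without tumour 3), with 15 log2 fold changes positive and 3 negative. At an unadjusted p under 0.05 by edgeR 4 were higher, where 5.34% of all genes were. Aqp1, a water channel, averaged 331 ± 39.9 CPM in muscle-rich and 213 ± 56.3 CPM in muscle-poor tumours, and Plvap, of fenestrated vessels, ranged over 99.1 to 143 CPM in muscle-rich and 47.3 to 147 CPM in muscle-poor tumours. Cd36, a fatty acid receptor of capillaries, fat and muscle, was the only member without overlap among the 18 (22.1 ± 6.3 CPM in muscle-rich and 9.11 ± 4.97 CPM in muscle-poor tumours), and it too was picked after its values were seen. That count is near the share of all genes, 4.34% of which were higher without overlap. Of 10 smooth muscle genes, with a median of 0.42 (0.08 without tumour 2), 3 were higher without overlap, where 4.34% of all genes were, and 2 of these, Des and Synpo2, are shared with skeletal fibres. Des, desmin, averaged 1178 ± 465 CPM in muscle-rich and 306 ± 237 CPM in muscle-poor tumours, and Synpo2, a Z-disc protein, 68.9 ± 27.1 CPM in muscle-rich and 11.002 ± 5.7 CPM in muscle-poor tumours (log2 fold change 2.42 ± 0.45 (SE), adjusted p = 0.159 by edgeR). Myh11, the smooth muscle myosin, was at 16.7, 11.1 and 7.91 CPM in the muscle-rich tumours, against 3.04, 7.27, 4.37, 3.97 and 7.24 CPM in the muscle-poor ones (log2 fold change 1.10 ± 0.38 (SE), adjusted p = 0.436 by edgeR), while Acta2, smooth muscle actin, ranged over 179 to 429.6 CPM in muscle-rich and 262 to 533 CPM in muscle-poor tumours. Nerve and Schwann cell genes had a median of 0.33 (0.12 without tumour 2): Cnp ranged over 35.9 to 45.0 CPM in muscle-rich and 36.1 to 51.3 CPM in muscle-poor tumours, and Pmp22, a myelin protein, over 36.3 to 48.7 CPM in muscle-rich and 30.0 to 35.2 CPM in muscle-poor tumours. Pmp22 was the 1 nerve gene of 12 without overlap, beside 4.34% of all genes. Tendon and cartilage genes had a median of 0.32, which was -0.44 without tumour 4 and 1.41 without tumour 7, with Fmod, fibromodulin, at 121 to 512 CPM in muscle-rich and 128 to 383 CPM in muscle-poor tumours, and Thbs4, a thrombospondin of tendon and muscle, at 121 to 521 CPM in muscle-rich and 123 to 384 CPM in muscle-poor tumours.

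Of the immune lists, B cell genes had the median farthest from that of all genes. Median log2 fold changes were 0.06 for 18 macrophage, -0.05 for 15 T cell, 0.03 for 15 natural killer and cytotoxic, -0.12 for 11 dendritic cell and 0.32 for 22 interferon response genes, beside -0.01 over all genes. Of the interferon response genes 20 had a positive log2 fold change, with a median of 0.80 without tumour 1 and -0.04 without tumour 4. The natural killer and dendritic cell medians were 0.92 and 0.43 without tumour 1, and that of T cells was 0.25 without tumour 2 and -0.42 without tumour 7. The macrophage genes Apoe and Lyz2 ranged over 3364 to 4443 CPM in muscle-rich and 2146 to 6009 CPM in muscle-poor tumours, and 1771 to 2213 CPM in muscle-rich and 1496 to 3621 CPM in muscle-poor tumours. Cd4 and Cd8a of T cells ranged over 19.6 to 22.9 CPM in muscle-rich and 17.4 to 31.5 CPM in muscle-poor tumours, and 6.04 to 29.2 CPM in muscle-rich and 11.8 to 33.5 CPM in muscle-poor tumours. Ccl5 and Nkg7, of cytotoxic lymphocytes, ranged over 35.1 to 93.3 CPM in muscle-rich and 27.3 to 109 CPM in muscle-poor tumours, and 6.36 to 22.6 CPM in muscle-rich and 6.85 to 29.2 CPM in muscle-poor tumours. Cxcl9, the interferon-induced chemokine that draws T cells, ranged over 134 to 362 CPM in muscle-rich and 48.1 to 771 CPM in muscle-poor tumours, with tumour 1 the highest and tumour 3 the lowest. Cxcr2, the neutrophil chemokine receptor, was the 1 listed gene lower without overlap and was named for that; it was at 3.41, 7.78 and 11.4 CPM in the muscle-rich tumours, against 17.0, 13.4, 20.6, 29.7 and 14.4 CPM in the muscle-poor ones (log2 fold change -1.20 ± 0.35 (SE), adjusted p = 0.317 by edgeR). The 12 neutrophil and mast cell genes had a median of -0.22, which was 0.11 without tumour 1 and -0.73 without tumour 7. S100a9, a neutrophil protein, did not separate the groups (17.3 to 109 CPM in muscle-rich and 46.1 to 132 CPM in muscle-poor tumours). Mcpt4, a protease of connective tissue mast cells, named after its values were seen, averaged 79.4 ± 20.8 CPM in muscle-rich and 44.2 ± 10.7 CPM in muscle-poor tumours (log2 fold change 0.83 ± 0.24 (SE), adjusted p = 0.329 by edgeR), while Tpsb2, mast cell tryptase, overlapped (111 to 229 CPM in muscle-rich and 68.5 to 182 CPM in muscle-poor tumours). Clec10a and Fscn1, of dendritic cells and macrophages, ranged over 16.9 to 30.2 CPM in muscle-rich and 6.63 to 19.7 CPM in muscle-poor tumours, and 92.0 to 138 CPM in muscle-rich and 78.0 to 157 CPM in muscle-poor tumours.

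B cell genes had a median of -2.05 over 11 genes, and all 11 had a negative log2 fold change. They summed to 16.8, 39.7 and 72.5 CPM in the muscle-rich tumours, against 98.1, 417, 155, 56.1 and 38.2 CPM in the muscle-poor ones, and tumour 3 was the highest. The median was -0.47 without tumour 3 and -3.63 without tumour 7. Ms4a1, the B cell surface protein CD20, was at 0.0974, 0.152 and 0.385 CPM in the muscle-rich tumours, against 0.232, 25.5, 0.826, 0.285 and 0.153 CPM in the muscle-poor ones. The log2 fold change of Ms4a1 was -0.45 without tumour 3, against -3.37 with it (adjusted p = 0.964 and 0.692 by edgeR). Cd22 was at 63.7 CPM in tumour 3 and at most 18.2 CPM elsewhere. Jchain, of antibody-secreting cells, was spread over both groups (0.779 to 44.3 CPM in muscle-rich and 17.1 to 116 CPM in muscle-poor tumours), and its log2 fold change was -1.85 without tumour 3, against -1.92 with it (adjusted p = 0.856 and 0.659 by edgeR). Mzb1, a chaperone of antibody assembly with the smallest p of the list, was at 0.219, 0.126 and 0.577 CPM in the muscle-rich tumours, against 0.869, 2.3, 2.07, 0.713 and 0.511 CPM in the muscle-poor ones, and its log2 fold change was -1.54 without tumour 3, against -2.05 with it (adjusted p = 0.747 and 0.441 by edgeR). The tumour with the most B cell RNA is thus the one with the highest slow and embryonic muscle shares, in these 8 libraries.

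Over 15 epithelial and carcinoma genes the median was -0.07, and -0.55 without tumour 7. Krt8 and Krt18, keratins of simple epithelia that Panc02 transcribes, ranged over 359 to 625.2 CPM in muscle-rich and 543 to 757 CPM in muscle-poor tumours, and 236 to 465.7 CPM in muscle-rich and 460.1 to 659 CPM in muscle-poor tumours, with 1438 and 956 CPM on average in culture. All 30 cell cycle genes had a negative log2 fold change, with a median of -0.26 (-0.11 without tumour 7 and -0.45 without tumour 2) and a range of -0.49 to -0.03, and 5 had an unadjusted p under 0.05, where 3.42% of all genes were lower by that rule. Top2a, a topoisomerase of dividing cells, was at 193, 160.1 and 231 CPM in the muscle-rich tumours, against 195, 158, 318, 331 and 363 CPM in the muscle-poor ones, and Pcna, the replication clamp, at 133, 103 and 130.40 CPM in the muscle-rich tumours, against 167, 121, 157, 146 and 168 CPM in the muscle-poor ones; the groups overlapped for both. Cdk1, the mitotic kinase, picked after its values were seen, was at 89.3, 57.7 and 82.2 CPM in the muscle-rich tumours, against 99.9, 112, 117, 85.3 and 132 CPM in the muscle-poor ones (log2 fold change -0.49 ± 0.18 (SE), adjusted p = 0.488 by edgeR). Cell cycle genes were far higher in culture (Top2a 898 and 923 CPM), and the part of the share of tumour cells in these values was not tested. Glycolysis and hypoxia genes had a median of -0.05: Ldha, lactate dehydrogenase, ranged over 1248 to 1449 CPM in muscle-rich and 1087 to 1726 CPM in muscle-poor tumours, and Pgk1 over 381 to 585 CPM in muscle-rich and 420.1 to 709 CPM in muscle-poor tumours. Hk2, the hexokinase of muscle, fat and many tumours, and Pfkfb3, a switch of glycolytic flux, both picked after their values were seen, averaged 79.1 ± 21.0 CPM in muscle-rich and 58.7 ± 15.9 CPM in muscle-poor tumours, and 52.1 ± 12.8 CPM in muscle-rich and 32.7 ± 6.1 CPM in muscle-poor tumours. Their log2 fold changes were 0.61 and 0.69 (adjusted p = 0.380 and 0.377 by edgeR), and that of Hk2 was 0.38 without tumour 4. Of the 15 tested genes of this list, 7 had a positive and 8 a negative log2 fold change, down to -0.63. Matrix and protease genes had a median of 0.00, with Fn1, fibronectin, at 7139.5 to 9486 CPM in muscle-rich and 5702 to 8791 CPM in muscle-poor tumours, and Sparc at 3467 to 4466 CPM in muscle-rich and 2879 to 6271 CPM in muscle-poor tumours. Oxidative phosphorylation subunits had a median of 0.09; Atp5b and Atp5a1, of the ATP synthase, averaged 947 ± 72.4 CPM in muscle-rich and 889 ± 49.4 CPM in muscle-poor tumours, and 664 ± 72.7 CPM in muscle-rich and 604 ± 31.2 CPM in muscle-poor tumours. The presentation genes B2m and H2-Aa ranged over 1004 to 1829 CPM in muscle-rich and 753 to 2312 CPM in muscle-poor tumours, and 980.2 to 2182 CPM in muscle-rich and 569.9 to 2167 CPM in muscle-poor tumours.

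Muscle content cut across host sex, with 2 of 4 female-host and 1 of 4 male-host tumours muscle-rich. With the muscle group in the fit, 2 genes (0.00884%) were lower and 0 (0.0%) higher in female than in male hosts, Eif2s3y and Kdm5d, both on the Y chromosome. With host sex alone in the fit, 3 were lower. A test of the interaction of host sex and muscle group called none of 24949 genes (0.0%, smallest adjusted p 0.396, edgeR). The male arm has a single muscle-rich tumour, so that count does not show that the muscle contrast is alike in both sexes. The log2 fold change of Hbb-bs, for one, was 1.17 in female and 3.95 in male hosts fitted alone (adjusted p = 0.429 and 0.00122 by edgeR). At an unadjusted p under 0.05 the interaction test had 474 genes with a more positive contrast in female hosts and 539 with a more positive one in male hosts.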

How the data were processed

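Polyadenylated RNA of 8 Panc02 allografts and 2 Panc02 cultures was sequenced with strand-specific libraries from 500 ng and 100 ng of RNA, with integrity numbers of 8.5 to 10, per the labels' protocols. The deposited tables give raw counts of reads for each gene. The submitters' processing notes name featureCounts 2.0.6, HISAT2 2.2.1, cutadapt 4.4 and SAMtools 1.19.2, and build GRCm39. Per the file headers, exons of Ensembl release 113 were counted with strand setting 2, each mate on its own and multi-mapping reads included, so values of paralogs are uncertain. Of genes with 1 to 20 counts, 66.7% to 77.9% were even, where 50% is chance, so counting error exceeds what the counts imply. All 37 mitochondrial genes were at 0. Another 12 columns of the series were not used.

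CPM are counts per 1000000 counts of the library; length-scaled levels divide counts by exon length and share them out to the same total in every library. No pair of tumours agreed within sampling noise (chi-square per gene 47.6 to 289.6). Of 78298 gene IDs, 51498 were matched to a symbol, as were 456 of 457 listed symbols. The main test was edgeR 4.0.16 (R 4.3.3; TMM, filterByExpr, robust quasi-likelihood F-test, host sex as covariate) on 8 tumours, with Benjamini-Hochberg adjustment over 22621 genes at 0.05; SE is the log2 fold change over the square root of F. The script was tested on simulated data. Alternatives used DESeq2 1.42.0 and limma 3.58.1. The groups, the 32 gene lists and the rule for named genes were chosen with earlier results of these data known. The rule took the 2 most abundant members of each list that is not a muscle list and has no called gene, the 4 most abundant members of each muscle list with the smallest ratio, and a fixed set. Genes named beyond it were chosen after their values were seen. Some listed genes are not reported here. Promoters are from RefSeq on GRCm38.p6, and gene coordinates from the count tables on GRCm39.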

Additional observations from a re-analysis of the deposited data

Results flagged for a closer look

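Among the 5 muscle-poor tumours, 178 values were checked for a single tumour far from the other 4 by Dixon's criterion, and 28 met it. For independent, normally distributed values about 1 of 20 groups meets it. The values here are CPM and shares that have genes in common, so 28 cannot be set against that rate. Tumour 3 was the high one in 20 of them. Its values for genes of the muscle lists were Tpm3 508 CPM, Myh7 36.1 CPM, Myom3 7.12 CPM, Sln 67.4 CPM, Chrna1 30.6 CPM, Mymx 2.33 CPM, Tnnt2 56.4 CPM, Myh1 205 CPM, Myh3 17.5 CPM and Tnni1 34.7 CPM. The slow fibre genes summed to 658 CPM there and the developmental muscle genes to 224 CPM. Most of the slow fibre sum was Tpm3, which many other cells use. That sum was 537 and 521 CPM in cultured Panc02 and 683 CPM in muscle-rich tumour 2. The slow share of troponin T was 9.78%, and Myh1 and Myh3 made up 33.0% and 2.96% of 6 myosin heavy chains. The B cell genes Cd22, Ms4a1 and Pax5 were at 63.7, 25.5 and 42.2 CPM in tumour 3, and the haem synthesis gene Alas2 at 1.3 CPM. The sum of the sex-linked genes was 98.3 CPM, which is nearly all Xist.

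Tumour 1 was the high one for Cd8a (33.5 CPM), Tpsb2 (182 CPM) and Plin4 (31.2 CPM). Tumour 5 was the high one for Krt1 (1.83 CPM), Krtdap (0.944 CPM) and Pdgfra (69.6 CPM). Tumour 6 was the high one for Lpin1 (36.6 CPM) and tumour 8 for Ucp3 (1.43 CPM).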

How the results depend on the processing

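The absence of called genes depends on the model. Genes called higher and lower in muscle-rich tumours were 477 and 54 by DESeq2, 249 and 15 with no filter on low counts, 140 and 0 without host sex in the fit, and 12 and 0 in male hosts alone, where only tumour 7 is muscle-rich. They were 0 and 0 with median-ratio size factors, with muscle genes removed before scaling, by limma voom, with cultured Panc02 in the fit, with the boundary at 2500 or 10000 CPM, and in female hosts alone. Leaving out each tumour gave 0 to 1 higher, the 1 without tumour 7 being Tnxb, and 0 lower. Members called in lists other than muscle were 16 by DESeq2, 3 with no filter, 2 without host sex and 5 in male hosts alone. Genes called between host sexes were 523 by DESeq2, 403 with no filter and 0 to 3 without each tumour, with 0 on leaving out tumour 2, 4, 5, 6, 7 or 8. The slow share of troponin I by raw counts averaged 1.98% in muscle-rich and 9.37% in muscle-poor tumours. The muscle lists averaged 43540.2 CPM in muscle-rich and 7268 CPM in muscle-poor tumours, and 44239 and 7233 CPM of TMM-scaled library size. For 39 genes, 689 of 730 log2 fold changes kept their sign and their side of the threshold, 40 passed it and 1 turned: Krt1 to -3.48 with the boundary at 10000 CPM. Leaving out each tumour moved Ms4a1 between -6.61 and -0.45. The causes of these shifts were not tested beyond the samples and genes each alternative removes. The ratio of Sln and the counts of genes without overlap after leaving out tumours were added after seeing the data; for all genes the counts were 1121 to 1787 higher, beside 981 with all tumours, and 688 to 1578 lower, beside 540, the highest of each without tumour 7. Of 418 medians of the lists other than muscle, 51 moved by more than the SD of the list's mean log2 level among muscle-poor tumours, most of them without a single tumour, with the boundary at 10000 CPM or in 1 host sex. In male hosts alone the tendon and neutrophil medians were -1.03 and 0.72. No paired analysis was possible because the female-host and male-host tumours share no replicate number.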
